A study of Mus musculus with 15 samples.

Results

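Livers of mice that received a gut microbiota as adults were compared with livers of mice that had carried one since birth, both groups fed chow. The sample titles name 3 conventionalized (ConvD) and 3 conventionally raised (ConvR) mice on chow, and these 6 libraries of the 15 in the series were taken. ConvD mice were C57BL/6J males, of a common inbred laboratory strain, that were germ-free until 15 weeks of age. They then received 1 oral gavage of about 0.2 ml of cecal contents from chow-fed ConvR donors, also 15 weeks old, and were dissected 4 weeks later, at 19 weeks of age. ConvR mice were C57BL/6J mice that had acquired their microbiota from birth and were dissected at the same age. The labels name the sex of the gavaged mice only, and the Y-linked gene Ddx3y stood at 44.7, 61.1 and 53.3 CPM in ConvD mice and at 54.3, 39.1 and 56.7 CPM in ConvR mice. From 3 weeks of age both groups ate a sterilized breeder chow with 23.7% of its energy from fat, 53.2% from carbohydrate and 23.1% from protein. The other 9 libraries came from germ-free (GF) mice on chow and from ConvR and GF mice on HF/HS, a diet rich in fat and sucrose, 3 mice each, and serve as context. ConvD mice were kept in sealed filter-top cages after the gavage and ConvR mice in vinyl isolators. Cages held mice of 1 colonization status and diet. Age at colonization, duration of colonization, gavage, housing and cage therefore cannot be told apart. Nothing in the labels says that mice of a group came from separate cages, and p-values measure only the spread between these mice.

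Blood from the intestine reaches the liver through the portal vein and carries microbial molecules, bile acids and fermentation products. Hepatocytes answer the cytokines IL-6 and IL-1, through the transcription factors STAT3 and NF-kB, by making acute phase proteins such as serum amyloid A. Kupffer cells, the resident liver macrophages, clear microbial products from the blood, and hepatic genes of drug, bile acid, lipid and glucose metabolism are known to respond to the gut microbiota.

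Messenger RNA of whole liver was sequenced, and the expected counts assigned to genes totalled 17607907 to 21794811 in ConvD libraries and 16837867 to 19113375 in ConvR libraries. Levels are given as CPM, a gene's count relative to the library total scaled by TMM factors, in mice 1, 2 and 3 of each group in that order. A fold change is the log2 ratio of ConvD to ConvR ± its SE, given in parentheses after the levels with the adjusted p. The 3 ConvR libraries were unlike each other. The leading principal component of the 6 libraries, with 56.8% of the variance, placed ConvD mice at 23.1, 28.7 and 19.4 and ConvR mice at -32.4, -42.6 and 3.8. Alb, the serum albumin gene and a defining hepatocyte marker, took 7.01%, 8.56% and 7.17% of counts in ConvD mice and 3.46%, 2.86% and 6.52% in ConvR mice. Deviations from the mean of the 15 libraries also followed gene length differently, with Spearman correlations across genes, which are not independent replicates, of 0.196, 0.106 and 0.078 in ConvD mice and 0.018, -0.084 and -0.312 in ConvR mice.

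Of 12377 genes tested, 681 (5.50%) were called at an adjusted p below 0.05 by the quasi-likelihood test of edgeR after Benjamini-Hochberg adjustment, 272 (2.20%) higher and 409 (3.30%) lower in ConvD livers. The 3 ConvD levels lay above the 3 ConvR levels for 15.1% of genes and below them for 15.1%. A fold change of at least 2 was reached by 182 of the called genes, 28 higher and 154 lower. In 644 of the 681 called genes (94.6%), ConvR mouse 3 lay outside the range of the ConvD mice, on the same side as ConvR mice 1 and 2. The test that called these genes included ConvR mouse 3, so this share does not measure its agreement with ConvR mice 1 and 2.

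The number of calls changed with the libraries included. Of the 681, 60, 15 and 253 remained when ConvD mouse 1, 2 or 3 was left out, and 102, 54 and 636 when ConvR mouse 1, 2 or 3 was left out. In all 6 of these fits 14 genes (0.113%) kept their call, 4 higher (0.0323%) and 10 lower (0.0808%). Both ConvR mice 1 and 2 were also left out, which leaves 1 ConvR mouse whose spread is assumed to equal that of the other groups. That fit called Id3, Saa1, Saa2, Saa3, Lcn2 and Orm2, all lower in ConvD livers, and no other gene, with 1302 genes at an unadjusted p below 0.05. Of the 681 calls 39.9% were higher in ConvD livers, against 73.5% of calls with no normalization factors and 94.6% on deposited TPM, where the median log2 difference of all genes was 0.209, beside -0.008 with the TMM factors and 0.096 with none.

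**Figure D1:**
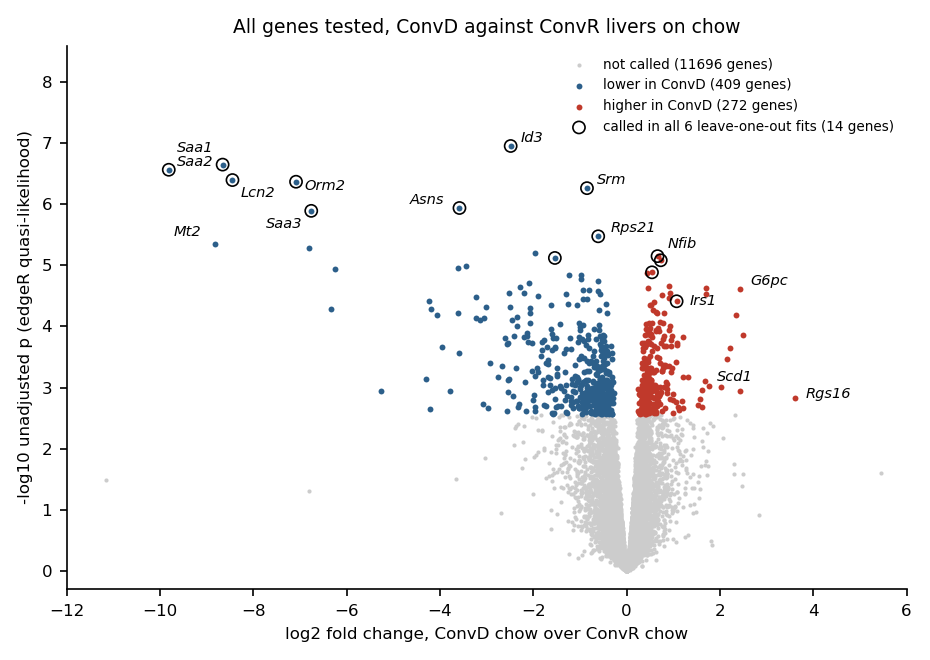
Each point is a gene tested, with the log2 fold change of ConvD over ConvR livers on the x axis and -log10 of the unadjusted edgeR p on the y axis. Red and blue points are the 272 genes called higher and the 409 called lower in ConvD livers, and circles mark the 14 genes called in all 6 fits that left out 1 library.

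**Figure D2:**
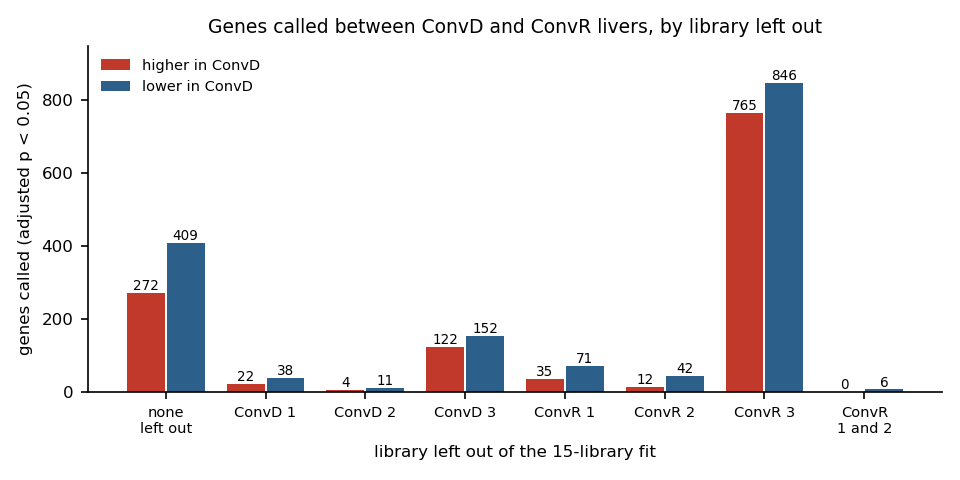
Number of genes called (y axis) in fits that leave out the libraries named below each pair of bars, higher (red) and lower (blue) in ConvD livers. Counts run from 15 calls without ConvD mouse 2 to 1611 without ConvR mouse 3, and 6 calls were made without ConvR mice 1 and 2.

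Acute phase transcripts were far lower in ConvD than in ConvR livers, led by serum amyloid A. Saa2, whose product circulates on high-density lipoprotein in inflammation, stood at 4.25, 4.79 and 17.1 CPM in ConvD mice and at 9887, 12793 and 695 CPM in ConvR mice. Each ConvR level lay above each ConvD level, and ConvR mouse 3 stood between the other ConvR mice and the ConvD mice. The log2 fold change was -9.81 ± 1.08 (SE; adjusted p = 0.00106), and -6.33 without ConvR mice 1 and 2 (adjusted p = 0.00124). Saa1, its near-identical neighbour, stood at 16.1, 16.1 and 33.6 CPM in ConvD mice and at 11213, 14534 and 789 CPM in ConvR mice (-8.66 ± 0.94, adjusted p = 0.00106). Reads of Saa1 and Saa2 may be split wrongly between them. Per gene length, Saa1 averaged 67.5 ± 30.1 TPM in ConvD and 22012 ± 17469 TPM in ConvR livers (SD, n = 3 each), beside 61559.8 ± 7841 TPM in ConvD and 30884 ± 14335 TPM in ConvR livers for Alb. Saa3, a form also made by macrophages, stood at 1.72, 2.21 and 5.10 CPM in ConvD mice and at 263, 671.5 and 35.2 CPM in ConvR mice (-6.76 ± 0.85, adjusted p = 0.00198). Saa4, the form made without inflammation, stood at 317, 296 and 334 CPM in ConvD mice and at 1382, 1579.6 and 352 CPM in ConvR mice (-1.81 ± 0.36, adjusted p = 0.0164). Its log2 fold change was -0.16 without ConvR mice 1 and 2. The call of Saa4 ended without ConvD mouse 1 (adjusted p = 0.0707), ConvD mouse 2 (0.0834), ConvR mouse 1 (0.0634) or ConvR mouse 2 (0.0857).

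Lcn2, which encodes the siderophore-binding protein lipocalin 2, stood at 1.67, 1.31 and 4.60 CPM in ConvD mice and at 1073, 1453 and 75.1 CPM in ConvR mice (-8.45 ± 0.96, adjusted p = 0.00106). Orm2, an alpha-1 acid glycoprotein gene, stood at 9.14, 5.15 and 8.76 CPM in ConvD mice and at 1304, 1716.5 and 94.1 CPM in ConvR mice (-7.08 ± 0.81, adjusted p = 0.00106). For these genes too the groups did not overlap and ConvR mouse 3 was the lowest of its group. Saa1, Saa2, Saa3, Lcn2 and Orm2 were called in all 6 fits that left out 1 mouse, with adjusted p up to 0.0155 for Saa2 and 0.0338 for Saa3. In GF chow livers Saa2 averaged 8.03, Lcn2 2.11 and Orm2 7.40 CPM, and in ConvR livers on HF/HS Saa2 stood at 22.7, 53.8 and 18.1 CPM.

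Across both acute phase lists, 22 of 30 members tested fell and the other 8 were not called, beside 3.30% of all genes called lower. Their median log2 fold change was -1.98, beside -0.01 over all genes tested, and -0.25 without ConvR mice 1 and 2, when 5 members were called. In 16 members each ConvD level lay below each ConvR level, beside 15.1% of all genes. Across the same mice the summed level of 6 tested neutrophil markers was 8.49, 7.46 and 10.04 CPM in ConvD mice and 55.3, 69.9 and 11.8 CPM in ConvR mice, moving with the acute phase transcripts, and its part in their levels was not tested. Hp, the hemoglobin-binding haptoglobin, stood at 2215, 1817 and 2445 CPM in ConvD mice and at 13598.5, 18211 and 2648 CPM in ConvR mice (-2.41 ± 0.47, adjusted p = 0.0156). Without ConvR mice 1 and 2 its log2 fold change was -0.29. Hpx, which binds heme, fell by 2.34 ± 0.42 on the log2 scale, the alpha-1 acid glycoprotein genes Orm1 by 2.49 ± 0.43 and Orm3 by 4.23 ± 0.72, the protease inhibitor gene Serpina3n by 2.45 ± 0.45, the serum amyloid P gene Apcs by 3.44 ± 0.52 and the fibrinogen-like gene Fgl1 by 3.22 ± 0.54. The call of Hp ended without ConvD mouse 1 (adjusted p = 0.0658), ConvD mouse 2 (0.0833), ConvR mouse 1 (0.0561) or ConvR mouse 2 (0.0749). The calls of Hpx, Orm1 and Serpina3n ended without ConvD mouse 1 (0.0546 to 0.0617), ConvD mouse 2 (0.0653 to 0.0728) or ConvR mouse 2 (0.0518 to 0.0645). The calls of Apcs and Fgl1 ended without ConvD mouse 2 (0.0544 to 0.0633). The call of Orm3 ended without ConvD mouse 1 (0.0563) or ConvD mouse 2 (0.0600).

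In the called members Itih4 and Lbp, ConvR mouse 3 lay below each ConvD mouse, opposite to the direction of the call. Itih4, an inter-alpha-trypsin inhibitor heavy chain, stood at 1681, 1477 and 1588 CPM in ConvD mice and at 5468, 6871 and 1439.9 CPM in ConvR mice (-1.54 ± 0.37, adjusted p = 0.0332, and a log2 fold change of 0.14 without ConvR mice 1 and 2). Lbp, which carries lipopolysaccharide to its receptor, stood at 90.3, 74.7 and 79.5 CPM in ConvD mice and at 259, 360.3 and 62.2 CPM in ConvR mice (-1.48 ± 0.39, adjusted p = 0.0438, and a log2 fold change of 0.39 without ConvR mice 1 and 2). Crp, a strong acute phase reactant in humans and a weak one in mice, fell by 0.80 ± 0.18 on the log2 scale (adjusted p = 0.0258). The fibrinogen gene Fga was not called (-0.96 ± 0.32, adjusted p = 0.0925). The calls of Itih4, Lbp and Crp ended without ConvD mouse 1 (adjusted p = 0.0959 to 0.114), ConvD mouse 2 (0.0925 to 0.154), ConvD mouse 3 (0.0676 to 0.106), ConvR mouse 1 (0.0651 to 0.121) or ConvR mouse 2 (0.111 to 0.215). Among 14 negative acute phase and carrier proteins, whose plasma levels fall in inflammation, 1 fell, the apolipoprotein gene Apom (-0.50 ± 0.13, adjusted p = 0.0375). That stands beside 3.30% of all genes called lower, and the list median was 0.02. The call of Apom ended without ConvD mouse 1 (adjusted p = 0.132), ConvD mouse 2 (0.0918), ConvD mouse 3 (0.0993), ConvR mouse 1 (0.0845) or ConvR mouse 2 (0.175). Alb stood at 68916, 84256 and 70024 CPM in ConvD mice and at 36344, 31503 and 66221 CPM in ConvR mice, without overlap, and was not called (0.74 ± 0.26, adjusted p = 0.108).

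**Figure D3:**
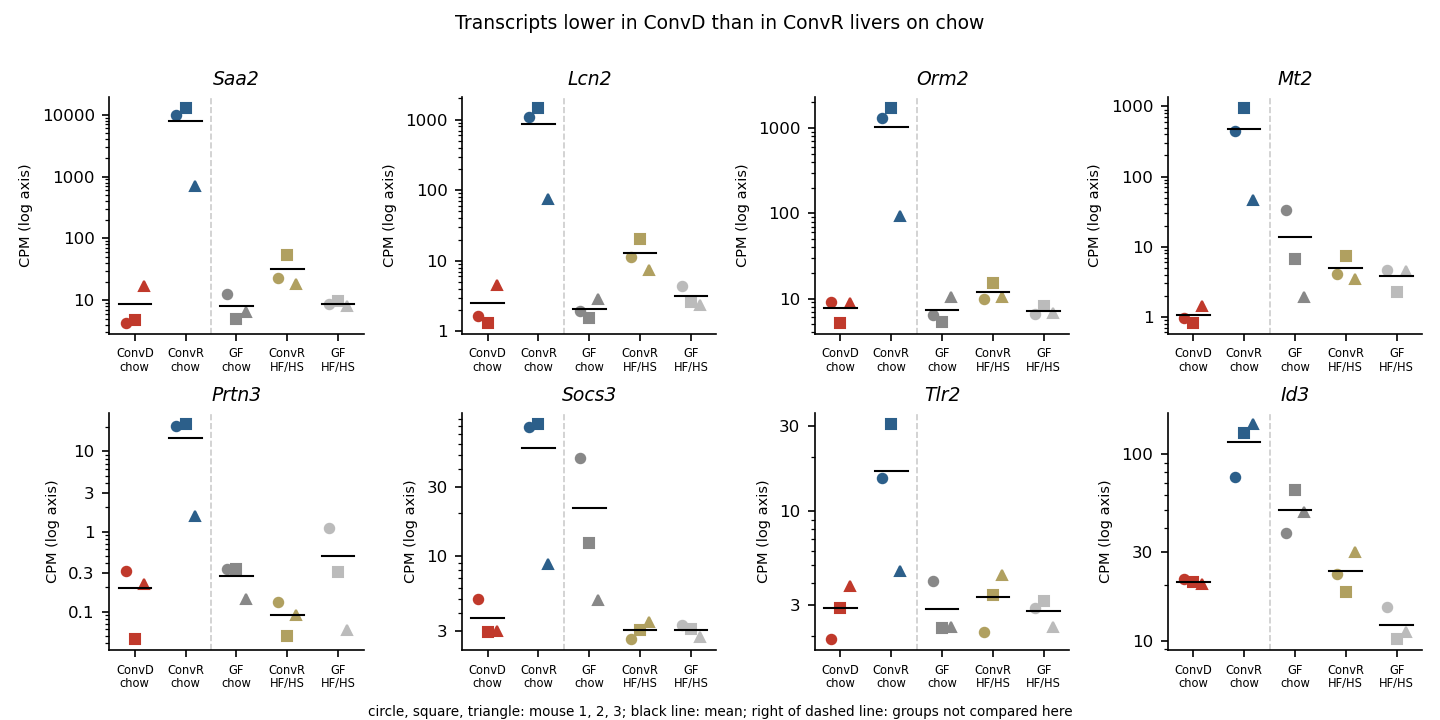
CPM on log axes for 8 transcripts, with ConvD chow mice left of ConvR chow mice and the 3 context groups right of the dashed line. Lines are means and symbols are mice, and ConvR mouse 3 (triangle) lies below the other ConvR mice in each panel but that of Id3, which stood at 20.1 to 21.4 CPM in ConvD mice and at 75.0 to 144.3 CPM in ConvR mice.

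A part of the cytokine signalling genes fell too. In the list of IL-6, IL-1 and STAT3 signalling, 7 of 21 members fell, 1 rose and 13 were not called, beside 3.30% of all genes called lower and 2.20% called higher. With limma-voom 5 members were called. The median log2 fold change was -0.73, and 0.06 without ConvR mice 1 and 2. Pim1, a kinase induced by STAT factors, stood at 6.77, 8.31 and 7.49 CPM in ConvD mice and at 23.8, 26.3 and 15.5 CPM in ConvR mice (-1.54 ± 0.23, adjusted p = 0.00668), and was called in all 6 fits that left out 1 mouse. Socs3, the feedback inhibitor of IL-6 signalling, stood at 5.05, 2.98 and 3.00 CPM in ConvD mice and at 78.3, 82.3 and 8.81 CPM in ConvR mice (-3.95 ± 0.80, adjusted p = 0.0168). Neither gene overlapped between groups, and both were lowest in mouse 3 among ConvR mice. The IL-1 receptor gene Il1r1 fell by 2.03 ± 0.41 on the log2 scale, the NF-kB regulators Bcl3 by 1.84 ± 0.39 and Nfkbiz by 1.95 ± 0.52, the oncostatin M receptor gene Osmr by 1.53 ± 0.39 and the TNF receptor gene Tnfrsf1a by 0.73 ± 0.17. Il1rap, the accessory chain of the IL-1 receptor, rose (0.52 ± 0.14, adjusted p = 0.0466). Stat3 itself was not called (-0.75 ± 0.31, adjusted p = 0.157). Cxcl1, a chemokine that recruits neutrophils, stood at 1.13, 0.678 and 1.66 CPM in ConvD mice and at 133, 134 and 9.29 CPM in ConvR mice (-6.34 ± 1.11, adjusted p = 0.0109). The calls of Socs3, Bcl3, Nfkbiz, Osmr, Tnfrsf1a and Il1rap ended without ConvD mouse 1 (adjusted p = 0.0658 to 0.119), ConvD mouse 2 (0.0918 to 0.163), ConvD mouse 3 (0.0595 to 0.0929), ConvR mouse 1 (0.0600 to 0.162) or ConvR mouse 2 (0.0749 to 0.194). The call of Il1r1 ended without ConvD mouse 1 (0.0701), ConvD mouse 2 (0.0871), ConvR mouse 1 (0.0676) or ConvR mouse 2 (0.0838). The call of Cxcl1 ended without ConvD mouse 1 (0.0592) or ConvD mouse 2 (0.0712).

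Among 23 tested genes of microbial sensing, 5 fell and 18 were not called, beside 3.30% of all genes called lower, and limma-voom called 2. The median log2 fold change was -0.42, and 0.00 without ConvR mice 1 and 2. Tlr2, a receptor of bacterial lipoproteins, stood at 1.93, 2.89 and 3.83 CPM in ConvD mice and at 15.3, 30.7 and 4.64 CPM in ConvR mice (-2.55 ± 0.51, adjusted p = 0.0165). Tlr1, its partner, stood at 0.537, 0.361 and 0.555 CPM in ConvD mice and at 1.32, 1.75 and 1.69 CPM in ConvR mice (-1.71 ± 0.35, adjusted p = 0.0168). The groups did not overlap for either gene, and Tlr1, unlike the acute phase genes, was as high in ConvR mouse 3 as in the other ConvR mice. Without ConvR mice 1 and 2 the log2 fold change of Tlr1 was -1.80 and was not called (adjusted p = 0.263). The Toll-like receptor inhibitor Irak3 fell by 1.76 ± 0.35 and Ripk2, the kinase downstream of NOD receptors, by 1.09 ± 0.28 on the log2 scale, the remaining called member being Lbp. The lipopolysaccharide receptor gene Tlr4 (-0.56 ± 0.16, adjusted p = 0.0589) and the flagellin receptor gene Tlr5 (0.75 ± 0.28, adjusted p = 0.124) were not called. The calls of Tlr2 and Irak3 ended without ConvD mouse 1 (adjusted p = 0.0658 to 0.0814), ConvD mouse 2 (0.0833 to 0.0871), ConvR mouse 1 (0.0522 to 0.0547) or ConvR mouse 2 (0.0857). The call of Tlr1 ended without ConvD mouse 1 (0.0658), ConvD mouse 2 (0.0964) or ConvR mouse 2 (0.0826). The call of Ripk2 ended without ConvD mouse 1 (0.125), ConvD mouse 2 (0.127), ConvD mouse 3 (0.0939), ConvR mouse 1 (0.0757) or ConvR mouse 2 (0.192).

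Alpk1 and Tifa, chosen outside the naming rule after their values were seen, encode the kinase that senses bacterial ADP-heptose and the adaptor it phosphorylates. Alpk1 stood at 1.50, 1.54 and 1.28 CPM in ConvD mice and at 12.5, 23.1 and 2.47 CPM in ConvR mice (-3.13 ± 0.57, adjusted p = 0.0133). Tifa stood at 12.3, 8.22 and 9.32 CPM in ConvD mice and at 68.2, 161 and 19.5 CPM in ConvR mice (-3.07 ± 0.56, adjusted p = 0.0125). Neither overlapped between groups, and without ConvR mice 1 and 2 the log2 fold changes were -0.77 and -0.98. The calls of Alpk1 and Tifa ended without ConvD mouse 1 (adjusted p = 0.0546 to 0.0592), ConvD mouse 2 (0.0704 to 0.0757) or ConvR mouse 2 (0.0521 to 0.0629).

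Metallothioneins, small proteins that bind zinc and copper, fell in ConvD livers. Mt2 stood at 0.967, 0.813 and 1.44 CPM in ConvD mice and at 452, 947 and 46.9 CPM in ConvR mice (-8.82 ± 1.23, adjusted p = 0.00553). Mt1 stood at 3.82, 2.58 and 3.38 CPM in ConvD mice and at 337, 710.1 and 37.5 CPM in ConvR mice (-6.80 ± 0.96, adjusted p = 0.00586). Neither gene overlapped between groups, and both were highest in ConvR mouse 2. In GF chow livers Mt2 averaged 13.9 CPM and Mt1 27.3 CPM. Without ConvR mice 1 and 2 the log2 fold changes were -5.46 and -3.53 and were not called (adjusted p = 0.132 and 0.151). The calls of Mt2 and Mt1 ended without ConvD mouse 2 (adjusted p = 0.05002 to 0.0504). Of 9 genes in the list of metallothioneins and zinc transport, these 2 fell, the metal importer gene Slc39a8 rose (0.40 ± 0.10, adjusted p = 0.0362) and 6 were not called. Of all genes 3.30% were called lower and 2.20% higher. Slc39a14, a zinc importer known to be induced by IL-6, stood at 167, 162 and 138 CPM in ConvD mice and at 295, 366 and 115 CPM in ConvR mice (-0.73 ± 0.31, adjusted p = 0.174). The call of Slc39a8 ended without ConvD mouse 1 (adjusted p = 0.0995), ConvD mouse 2 (0.151), ConvD mouse 3 (0.0540), ConvR mouse 1 (0.129) or ConvR mouse 2 (0.111).

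The start-site regions of Mt1 and Mt2 are shown because these neighbours moved together and are known to be driven by metal response elements. The sequences are from RefSeq, build GRCm38.p6, from 250 bases before to 50 bases after each start site, on the plus strand, at chr8:94178839-94179138 for Mt1 and chr8:94172368-94172667 for Mt2. Capitals mark each match on either strand to the metal response core TGCACNC or TGCGCNC.
Mt1: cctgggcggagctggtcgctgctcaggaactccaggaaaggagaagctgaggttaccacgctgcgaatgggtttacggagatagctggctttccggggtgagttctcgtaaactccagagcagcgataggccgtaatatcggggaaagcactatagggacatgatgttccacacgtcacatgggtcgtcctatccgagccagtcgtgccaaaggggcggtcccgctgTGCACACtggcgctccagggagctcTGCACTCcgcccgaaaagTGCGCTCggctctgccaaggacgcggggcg
Mt2: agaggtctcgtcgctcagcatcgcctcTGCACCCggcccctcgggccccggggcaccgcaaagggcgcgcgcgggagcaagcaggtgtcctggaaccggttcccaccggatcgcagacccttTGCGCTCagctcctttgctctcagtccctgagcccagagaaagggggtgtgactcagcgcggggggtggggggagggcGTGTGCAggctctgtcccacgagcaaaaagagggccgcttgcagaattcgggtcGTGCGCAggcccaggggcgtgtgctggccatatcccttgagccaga
Mt1 held 3 matches and Mt2 held 4, and none overlapped with the other motifs searched. At least 1 match was found in 25.7% of 32851 mouse promoters of the same length. For the acute phase, 16 of the 22 called genes had a promoter in the same collection. The STAT motif TTCNNNGAA was found on either strand in promoters of 3 of these 16 genes and an NF-kB motif in 1, beside 9.55% of 27025 genes for each motif. A match describes the sequence only.

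Id3 was high in all 3 ConvR mice, mouse 3 included. Id3 inhibits basic helix-loop-helix transcription factors, is a target of bone morphogenetic protein (BMP) signalling and is also expressed by Kupffer cells. It stood at 21.4, 20.7 and 20.1 CPM in ConvD mice and at 74.95, 129.9 and 144 CPM in ConvR mice. The ConvD mice were close together and below each ConvR mouse, and mouse 3 was the highest of the ConvR mice. The log2 fold change was -2.49 ± 0.26 (adjusted p = 0.00106), with adjusted p up to 0.0155 when 1 mouse was left out, and -2.79 without ConvR mice 1 and 2 (adjusted p = 6.01e-04). It averaged 50.1 CPM in GF chow livers and stood at 22.7, 18.3 and 29.8 CPM in ConvR livers on HF/HS. Hamp, another BMP target, encodes hepcidin, the liver hormone that lowers iron uptake. Hamp stood at 162.5, 304 and 278 CPM in ConvD mice and at 287, 638 and 839 CPM in ConvR mice, with overlap (-1.24 ± 0.51, adjusted p = 0.155). Id1, a close relative of Id3, stood at 1.56, 2.80 and 1.05 CPM in ConvD mice and at 2.97, 3.32 and 7.30 CPM in ConvR mice, without overlap (-1.30 ± 0.44, adjusted p = 0.0961). Of 17 tested genes of hepcidin and iron edgeR called 0, with 3 at an unadjusted p below 0.05, DESeq2 called 1 and limma-voom 0. The median log2 fold change of the list was -0.13, while on TPM it was 0.13, or -0.08 relative to all genes.

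Id3 was also the 1 member called of 17 in the list of Kupffer cell markers, beside 3.30% of all genes called lower. The list median was -0.31. The summed level of that list was 683, 685 and 956 CPM in ConvD mice and 934, 1129.7 and 1015 CPM in ConvR mice. Clec4f, the defining marker of mouse Kupffer cells, stood at 87.4, 91.2 and 114.5 CPM in ConvD mice and at 113, 136 and 113 CPM in ConvR mice (-0.31 ± 0.15, adjusted p = 0.225). The part of Kupffer cells in the level of Id3 was not tested.

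The asparagine synthetase gene Asns and the spermidine synthase gene Srm were also called lower in ConvD livers in all 6 fits that left out 1 mouse. Asns, a target of the stress response factor ATF4, stood at 1.72, 0.723 and 1.94 CPM in ConvD mice and at 20.1, 21.6 and 10.1 CPM in ConvR mice (-3.58 ± 0.45, adjusted p = 0.00198). ConvR mouse 3 was the lowest of its group and still above each ConvD mouse, and GF chow livers averaged 5.02 CPM. Asns was the 1 member called of 15 in the integrated stress response list, beside 3.30% of all genes called lower. The median log2 fold change of that list was -0.18, while on TPM it was 0.11, or -0.10 relative to all genes. Atf4 itself was not called (-0.11 ± 0.16, adjusted p = 0.715). Srm stood at 15.05, 13.9 and 17.3 CPM in ConvD mice and at 29.5, 28.6 and 25.03 CPM in ConvR mice, without overlap (-0.85 ± 0.10, adjusted p = 0.00112). Without ConvR mice 1 and 2 the log2 fold changes of Asns, Srm and Pim1 were -2.80, -0.70 and -1.04 and none was called, with adjusted p of 0.148, 0.148 and 0.254.

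The start-site region of Asns is shown because amino acid response elements are known to drive this gene. It is from the same collection and build, on the minus strand at chr6:7693160-7693459, and capitals mark the match to TGATGNAA, searched on both strands.
Asns: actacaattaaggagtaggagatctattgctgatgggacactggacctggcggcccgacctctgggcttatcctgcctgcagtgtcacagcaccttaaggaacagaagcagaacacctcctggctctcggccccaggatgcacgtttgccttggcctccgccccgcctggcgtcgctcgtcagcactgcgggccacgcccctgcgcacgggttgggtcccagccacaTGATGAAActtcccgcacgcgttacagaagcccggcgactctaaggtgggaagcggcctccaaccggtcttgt
Asns held 1 match, which overlapped with no other motif searched, and 3.97% of the 32851 promoters held at least 1.

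A minority of cytosolic ribosomal protein genes fell, by small amounts. Of 80 tested, 10 fell and 70 were not called, beside 3.30% of all genes called lower, and 54 lay lower in each ConvD mouse than in each ConvR mouse, beside 15.1% of all genes. After removal of a trend on gene length 4 were called lower, and DESeq2 called 21. The median log2 fold change was -0.21, -0.20 without ConvR mice 1 and 2, and -0.10 after that trend was removed. On TPM it was 0.07, or -0.14 relative to all genes. Rps21 stood at 55.1, 62.2 and 55.97 CPM in ConvD mice and at 88.8, 94.99 and 80.5 CPM in ConvR mice (-0.61 ± 0.08, adjusted p = 0.00460), and kept its call in all 6 fits that left out 1 mouse. Rps12 fell by 0.45 ± 0.08, Rps10 by 0.42 ± 0.07 and Rplp2 by 0.50 ± 0.10 on the log2 scale. The calls of Rps12 and Rps10 ended without ConvD mouse 1 (adjusted p = 0.0546 to 0.0592) or ConvD mouse 2 (0.0600). The call of Rplp2 ended without ConvD mouse 1 (0.0842), ConvD mouse 2 (0.0875), ConvR mouse 1 (0.0638) or ConvR mouse 2 (0.0900). Rps27 was listed at 0 in all ConvD mice and in ConvR mouse 2, and stood at 29.0 and 15.9 CPM in ConvR mice 1 and 3. Near-identical copies make its value uncertain.

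In the list of endoplasmic reticulum chaperones, 4 of 20 members fell and 16 were not called, beside 3.30% of all genes called lower, and 2 were called lower after removal of the length trend. The median was -0.38, and -0.20 without ConvR mice 1 and 2, while on TPM it was -0.09, or -0.30 relative to all genes. Xbp1, a transcription factor of the unfolded protein response, stood at 185, 163 and 143.5 CPM in ConvD mice and at 219.7, 329 and 235 CPM in ConvR mice, without overlap (-0.67 ± 0.18, adjusted p = 0.0433). The secreted stress protein gene Manf fell by 0.89 ± 0.21, the chaperone gene Sdf2l1 by 1.16 ± 0.29 and the translocon gene Sec61b by 0.40 ± 0.08 on the log2 scale. The calls of Xbp1 and Sec61b ended without ConvD mouse 1 (adjusted p = 0.0894 to 0.0907), ConvD mouse 2 (0.0778 to 0.141), ConvD mouse 3 (0.0595 to 0.126), ConvR mouse 1 (0.0522 to 0.0639) or ConvR mouse 2 (0.112 to 0.202). The calls of Manf and Sdf2l1 ended without ConvD mouse 1 (0.115 to 0.117), ConvD mouse 2 (0.119 to 0.145), ConvR mouse 1 (0.0698 to 0.0771) or ConvR mouse 2 (0.150 to 0.168).

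Fewer genes rose strongly, and those with the largest increases included G6pc and Scd1. G6pc, the glucose-6-phosphatase that lets hepatocytes release glucose, stood at 615, 843 and 812 CPM in ConvD mice and at 162, 73.4 and 188 CPM in ConvR mice, without overlap. Its log2 fold change was 2.42 ± 0.40 (adjusted p = 0.00931), and 2.01 without ConvR mice 1 and 2 (adjusted p = 0.259). GF chow livers averaged 725 CPM. The call of G6pc ended without ConvD mouse 2 (adjusted p = 0.0544). Pck1, which makes phosphoenolpyruvate for gluconeogenesis, stood at 1934, 2576.5 and 2592 CPM in ConvD mice and at 2175, 1918 and 344 CPM in ConvR mice, with overlap (0.68 ± 0.59, adjusted p = 0.520). G6pc was the 1 gene called of 12 in the gluconeogenesis list, beside 2.20% of all genes called higher. The list median was 0.06.

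Irs1, a docking protein of the insulin receptor, stood at 34.98, 31.9 and 42.2 CPM in ConvD mice and at 20.3, 12.5 and 19.00 CPM in ConvR mice (1.07 ± 0.18, adjusted p = 0.0102). Irs1 was 1 of 4 genes that were higher in all 6 fits that left out 1 mouse, with adjusted p up to 0.0495. Nfib, a nuclear factor I transcription factor, stood at 80.3, 74.5 and 71.5 CPM in ConvD mice and at 49.2, 42.7 and 51.02 CPM in ConvR mice (0.66 ± 0.10, adjusted p = 0.00668). Dsp, which encodes desmoplakin of cell junctions, stood at 87.5, 78.04 and 75.8 CPM in ConvD mice and at 49.99, 44.96 and 50.4 CPM in ConvR mice (0.73 ± 0.11, adjusted p = 0.00681). Sos1, which activates Ras, stood at 52.7, 46.2 and 44.7 CPM in ConvD mice and at 33.1, 33.3 and 32.1 CPM in ConvR mice (0.54 ± 0.08, adjusted p = 0.00818). None of the 4 genes overlapped between groups, and ConvR mouse 3 was near the other ConvR mice for each. With the length trend removed, the log2 fold changes of Irs1, Nfib, Dsp and Sos1 were 0.93, 0.52, 0.58 and 0.40 and each was called. Without ConvR mice 1 and 2 they were 0.94, 0.56, 0.68 and 0.58 and none was called, with adjusted p of 0.247, 0.226, 0.226 and 0.210. In the list of insulin, growth hormone and IGF signalling, Irs1 rose, the kinase gene Akt1 fell (-0.47 ± 0.12, adjusted p = 0.0364) and 20 of 22 were not called. Of all genes 5.50% were called. The call of Akt1 ended without ConvD mouse 1 (adjusted p = 0.101), ConvD mouse 2 (0.141), ConvD mouse 3 (0.0814), ConvR mouse 1 (0.0934) or ConvR mouse 2 (0.177).

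Scd1, the stearoyl-CoA desaturase that makes monounsaturated fatty acids, stood at 5683, 9953 and 3962 CPM in ConvD mice and at 2076, 1849.9 and 2211 CPM in ConvR mice (1.68 ± 0.39, adjusted p = 0.0306). The ConvR mice were close together, ConvD mouse 2 was the highest of the 6, and GF chow livers averaged 1097 CPM. Scd1 was the 1 member called of 23 in the list of fatty acid synthesis and desaturation, beside 2.20% of all genes called higher. The list median was 0.13. Fasn, the fatty acid synthase gene, stood at 306, 494 and 345 CPM in ConvD mice and at 364.5, 308 and 378 CPM in ConvR mice, with overlap (0.13 ± 0.24, adjusted p = 0.790). Pklr, the liver pyruvate kinase gene, rose (0.97 ± 0.22, adjusted p = 0.0244). Lpl, which encodes lipoprotein lipase, stood at 33.1, 37.4 and 44.5 CPM in ConvD mice and at 22.2, 16.6 and 21.8 CPM in ConvR mice (0.92 ± 0.15, adjusted p = 0.00931). Lpl did not overlap between groups, and the fatty acid transporter gene Cd36 was not called (0.69 ± 0.29, adjusted p = 0.167). The calls of Scd1 and Pklr ended without ConvD mouse 1 (adjusted p = 0.0715 to 0.0779), ConvD mouse 2 (0.116 to 0.139), ConvR mouse 1 (0.0757 to 0.0895) or ConvR mouse 2 (0.126 to 0.137). The call of Lpl ended without ConvD mouse 2 (0.0544) or ConvR mouse 2 (0.0512).

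In the list of PPAR alpha targets and fatty acid oxidation, 2 of 38 members rose and 36 were not called, beside 2.20% of all genes called higher, while DESeq2 called 12. The median log2 fold change was 0.41, and 0.14 without ConvR mice 1 and 2, and 16 members lay higher in each ConvD mouse than in each ConvR mouse, beside 15.1% of all genes. Cpt1a, which admits long-chain fatty acids to mitochondria, stood at 349, 382 and 356 CPM in ConvD mice and at 279, 248 and 229.7 CPM in ConvR mice (0.52 ± 0.12, adjusted p = 0.0244). The groups did not overlap for Cpt1a, and mouse 3 was the lowest of the ConvR mice. Angptl4, an inhibitor of lipoprotein lipase, stood at 173, 180.3 and 164 CPM in ConvD mice and at 95.02, 78.2 and 37.7 CPM in ConvR mice, without overlap, and was not called (1.29 ± 0.37, adjusted p = 0.0547). The call of Cpt1a ended without ConvD mouse 1 (adjusted p = 0.0722), ConvD mouse 2 (0.107), ConvD mouse 3 (0.0575) or ConvR mouse 2 (0.109).

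**Figure D4:**
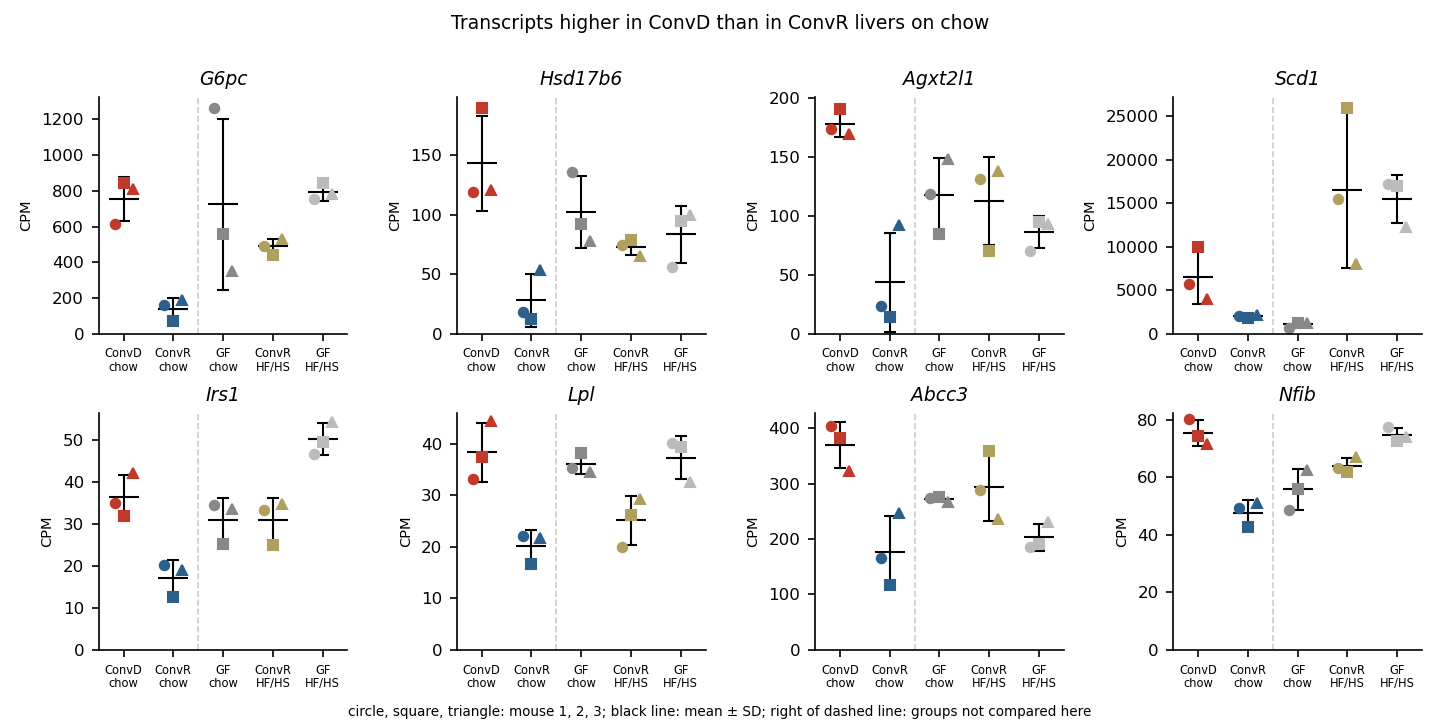
CPM for 8 transcripts, with ConvD chow mice left of ConvR chow mice and the 3 context groups right of the dashed line. Symbols are mice and black lines are means ± SD (n = 3 each), and in each panel the 3 ConvD mice lie above the 3 ConvR mice.

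Some genes of amino acid breakdown rose. Of 38 tested, 6 rose (15.8%, beside 2.20% of all genes) and 32 were not called, with a median log2 fold change of 0.16. Among them were enzymes of consecutive steps of histidine breakdown. Hal, the histidase gene, stood at 444, 447 and 392.5 CPM in ConvD mice and at 215, 171.5 and 288 CPM in ConvR mice (0.93 ± 0.24, adjusted p = 0.0391). Uroc1, the urocanase gene, stood at 413, 486 and 398 CPM in ConvD mice and at 322, 276 and 312 CPM in ConvR mice (0.51 ± 0.11, adjusted p = 0.0244). Amdhd1, which acts next, stood at 213, 220.3 and 176 CPM in ConvD mice and at 103.5, 94.6 and 160.3 CPM in ConvR mice (0.77 ± 0.17, adjusted p = 0.0258). None of these overlapped, and ConvR mouse 3 was nearest to the ConvD mice for Hal and Amdhd1. Ftcd, the enzyme after them, stood at 332, 370 and 316 CPM in ConvD mice and at 299, 220.5 and 378 CPM in ConvR mice, with overlap (0.18 ± 0.17, adjusted p = 0.547). The glycine decarboxylase gene Gldc rose by 0.51 ± 0.12, the urea cycle gene Ass1 by 0.72 ± 0.19 and the amino acid transporter gene Slc38a4 by 0.39 ± 0.10 on the log2 scale. The calls of Hal, Gldc, Ass1 and Slc38a4 ended without ConvD mouse 1 (adjusted p = 0.0907 to 0.128), ConvD mouse 2 (0.115 to 0.163), ConvD mouse 3 (0.0621 to 0.0919), ConvR mouse 1 (0.0780 to 0.121) or ConvR mouse 2 (0.129 to 0.184). The calls of Uroc1 and Amdhd1 ended without ConvD mouse 1 (0.0713 to 0.0910), ConvD mouse 2 (0.107 to 0.118), ConvR mouse 1 (0.0617 to 0.0932) or ConvR mouse 2 (0.126 to 0.129).

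Of 19 tested genes of bile acid transport and the FXR axis, 4 rose, 1 fell and 14 were not called, beside 2.20% of all genes called higher and 3.30% called lower. After removal of the length trend 2 were called higher and 1 lower. The median was 0.28, and 0.07 without ConvR mice 1 and 2. Abcc3, an exporter of bile acids and glucuronides into blood, stood at 403, 382.5 and 322 CPM in ConvD mice and at 165, 116 and 246 CPM in ConvR mice (1.07 ± 0.22, adjusted p = 0.0165). The canalicular transporter genes Abcb4, whose product moves phosphatidylcholine, and Abcb11, which encodes the bile salt export pump, rose by 0.51 ± 0.10 and 0.47 ± 0.12 on the log2 scale, and Klb, the coreceptor of FGF15, by 0.58 ± 0.15. Slc10a2, an apical bile acid importer known from ileum and bile ducts, stood at 13.9, 12.7 and 13.4 CPM in ConvD mice and at 30.8, 36.4 and 18.3 CPM in ConvR mice (-1.10 ± 0.25, adjusted p = 0.0289). The groups overlapped for neither Abcc3 nor Slc10a2, and ConvR mouse 3 was nearest to the ConvD mice for both. The calls of Abcc3 and Abcb11 ended without ConvD mouse 1 (adjusted p = 0.0713 to 0.135), ConvD mouse 2 (0.0778 to 0.162), ConvR mouse 1 (0.0686 to 0.131) or ConvR mouse 2 (0.0745 to 0.172). The call of Abcb4 ended without ConvD mouse 1 (0.0658), ConvD mouse 2 (0.0757) or ConvR mouse 2 (0.0745). The calls of Klb and Slc10a2 ended without ConvD mouse 1 (0.0890 to 0.0907), ConvD mouse 2 (0.113 to 0.176), ConvD mouse 3 (0.0699 to 0.0702), ConvR mouse 1 (0.0852 to 0.146) or ConvR mouse 2 (0.126 to 0.140).

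Of 18 bile acid synthesis genes edgeR called 0, with 5 at an unadjusted p below 0.05, while DESeq2 called 2 and limma-voom 0. Cyp7a1, the rate-limiting enzyme, stood at 42.5, 51.5 and 66.01 CPM in ConvD mice and at 49.8, 38.03 and 74.7 CPM in ConvR mice, with overlap (-0.02 ± 0.29, adjusted p = 0.971). Cyp8b1, the sterol 12 alpha-hydroxylase, stood at 425, 321 and 309 CPM in ConvD mice and at 200.2, 184 and 253 CPM in ConvR mice (0.73 ± 0.25, adjusted p = 0.0929). Csad, the decarboxylase of taurine synthesis, stood at 442, 268 and 336.5 CPM in ConvD mice and at 169, 305 and 412.5 CPM in ConvR mice (0.24 ± 0.33, adjusted p = 0.702).

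In the cholesterol synthesis list, 16 of 26 members lay lower in each ConvD mouse than in each ConvR mouse, beside 15.1% of all genes. The median was -0.29, and -0.37 without ConvR mice 1 and 2, or -0.21 relative to all genes on TPM. Of its members 1 was called, lower in ConvD livers, beside 3.30% of all genes. Mvd, an enzyme of the mevalonate pathway, was not called (-0.95 ± 0.27, adjusted p = 0.0517).

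Cyp3a11, the main PXR-inducible cytochrome P450 gene of mouse liver, stood at 5252, 4955 and 4766 CPM in ConvD mice and at 1505, 1941 and 3679.9 CPM in ConvR mice. The groups did not overlap, ConvR mouse 3 was nearest to the ConvD mice, and the gene was not called (1.07 ± 0.32, adjusted p = 0.0643). GF chow livers averaged 499 CPM. Of 5 tested members of the CYP3A list edgeR called 0, with 4 at an unadjusted p below 0.05 and a median of 0.61, while DESeq2 called 3 and limma-voom 0. Of 13 CYP2C enzymes, Cyp2c44 rose (1.00 ± 0.25, adjusted p = 0.0363) and Cyp2c40 fell (-1.64 ± 0.38, adjusted p = 0.0294), which is 15.4% of them, beside 5.50% of all genes. Of 31 NRF2 targets and glutathione transferases, Abcc3 and the epoxide hydrolase gene Ephx1 (0.86 ± 0.21, adjusted p = 0.0352) rose. Gstp2 fell (-1.81 ± 0.37, adjusted p = 0.0172), so that 9.68% of this list was called, beside 5.50% of all genes. The list median was 0.33, and -0.01 without ConvR mice 1 and 2. The calls of Cyp2c44, Cyp2c40 and Ephx1 ended without ConvD mouse 1 (adjusted p = 0.0658 to 0.117), ConvD mouse 2 (0.0875 to 0.141), ConvD mouse 3 (0.0653 to 0.0856), ConvR mouse 1 (0.0909 to 0.124) or ConvR mouse 2 (0.134 to 0.167). The call of Gstp2 ended without ConvD mouse 1 (0.0814), ConvD mouse 2 (0.0600), ConvD mouse 3 (0.0610) or ConvR mouse 2 (0.0995). Reads of these families may be split wrongly between near-identical genes.

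Of 28 male-biased genes, 2 fell and 26 were not called, beside 3.30% of all genes called lower. The list median was -0.22, and -0.40 without ConvR mice 1 and 2, while on TPM it was 0.13, or -0.08 relative to all genes. In 11 members each ConvD level lay below each ConvR level and in 5 above, beside 15.1% of all genes each way. Mup2, a major urinary protein gene of a family with near-identical members, stood at 3800.3, 2968 and 4128 CPM in ConvD mice and at 11596, 12266 and 8999 CPM in ConvR mice (-1.59 ± 0.31, adjusted p = 0.0156). Moxd1, a monooxygenase-like gene, stood at 11.7, 0.768 and 26.5 CPM in ConvD mice and at 354, 329 and 27.1 CPM in ConvR mice (-4.21 ± 1.13, adjusted p = 0.0466). ConvR mouse 3 was nearly level with ConvD mouse 3 for Moxd1 and closer to the other ConvR mice for Mup2. The call of Mup2 ended without ConvD mouse 1 (adjusted p = 0.0636), ConvD mouse 2 (0.0833), ConvR mouse 1 (0.0550) or ConvR mouse 2 (0.0745). The call of Moxd1 ended without ConvD mouse 1 (0.147), ConvD mouse 2 (0.144), ConvD mouse 3 (0.0656), ConvR mouse 1 (0.117) or ConvR mouse 2 (0.150). Of 12 tested female-biased genes, 2 fell and 10 were not called, beside 3.30% of all genes called lower, and limma-voom called 0. Their median was -0.30, and 0.12 without ConvR mice 1 and 2.

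The other large increases were of genes with diverse roles. Hsd17b6, a steroid dehydrogenase gene, stood at 119, 189.6 and 121 CPM in ConvD mice and at 18.1, 12.7 and 53.5 CPM in ConvR mice (2.35 ± 0.42, adjusted p = 0.0116). Agxt2l1, an ethanolamine phosphate phospholyase gene, stood at 174, 191 and 169 CPM in ConvD mice and at 24.03, 14.6 and 92.03 CPM in ConvR mice (2.03 ± 0.49, adjusted p = 0.0332). In both, ConvR mouse 3 was the highest of its group and below each ConvD mouse. Rgs16, a regulator of G protein signalling, stood at 1.61, 13.7 and 5.16 CPM in ConvD mice and at 0.715, 0.181 and 0.784 CPM in ConvR mice (3.61 ± 0.92, adjusted p = 0.0382). It was spread widely among ConvD mice and higher in each than in any ConvR mouse. Cabyr, a calcium-binding protein gene known from sperm, rose by 2.42 ± 0.60 on the log2 scale, the heparan sulfatase gene Sulf2 by 1.70 ± 0.28, the interferon-inducible GTPase gene Gbp10 by 1.62 ± 0.40 and the endopeptidase gene Mme by 1.57 ± 0.40. The call of Hsd17b6 ended without ConvD mouse 2 (adjusted p = 0.0638), ConvR mouse 1 (0.0554) or ConvR mouse 2 (0.0518). The calls of Agxt2l1, Gbp10 and Mme ended without ConvD mouse 1 (0.0842 to 0.110), ConvD mouse 2 (0.0664 to 0.120), ConvD mouse 3 (0.0648 to 0.109), ConvR mouse 1 (0.113 to 0.127) or ConvR mouse 2 (0.120 to 0.155). The call of Rgs16 ended without ConvD mouse 2 (0.171), ConvD mouse 3 (0.0610), ConvR mouse 1 (0.107) or ConvR mouse 2 (0.166). The call of Cabyr ended without ConvD mouse 1 (0.111), ConvD mouse 2 (0.0848), ConvD mouse 3 (0.0702), ConvR mouse 1 (0.0909), ConvR mouse 2 (0.134) or ConvR mouse 3 (0.0503). The call of Sulf2 ended without ConvD mouse 2 (0.0547) or ConvR mouse 2 (0.0512).

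**Figure D5:**
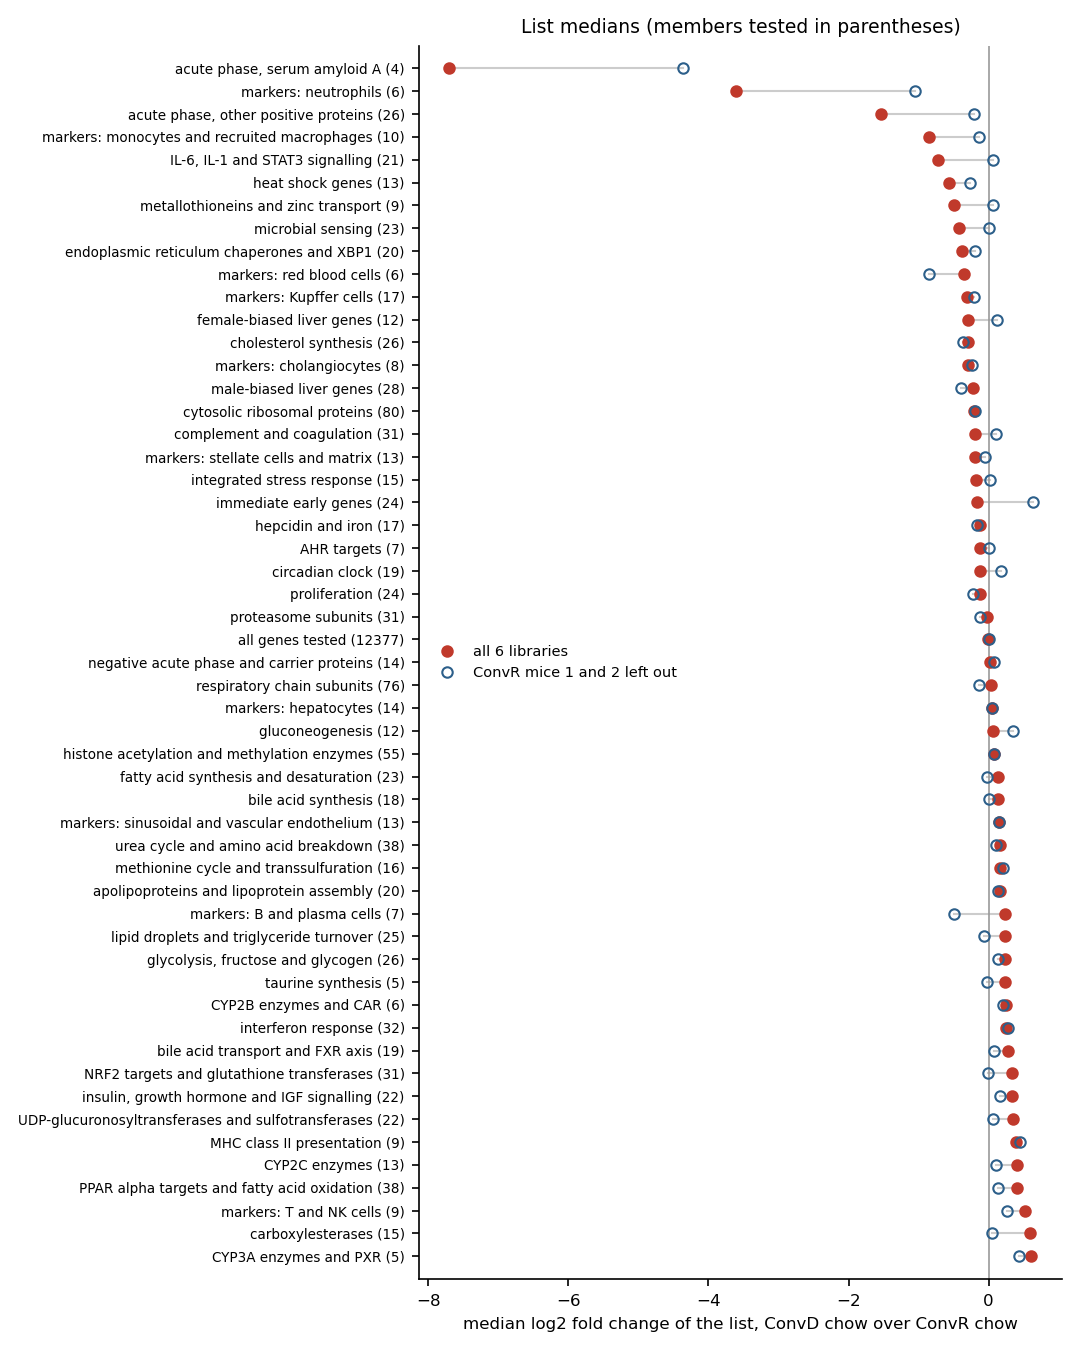
Median log2 fold change of ConvD over ConvR livers on the x axis for each gene list with at least 4 members tested and for all genes tested, sorted down the page. Filled points use all 6 libraries and open points leave out ConvR mice 1 and 2, where the serum amyloid A median is -4.36, against -7.71 with all mice, and that of the other acute phase genes is -0.21, against -1.54.

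Markers of other cells were read in whole liver, where fewer cells of a type and less RNA per cell cannot be told apart. Of 6 tested neutrophil markers, 4 fell, beside 3.30% of all genes, while limma-voom called 0 and DESeq2 4. The median was -3.60, and -1.05 without ConvR mice 1 and 2. Prtn3, a neutrophil protease gene, stood at 0.322, 0.0452 and 0.222 CPM in ConvD mice and at 20.95, 21.9 and 1.57 CPM in ConvR mice (-6.25 ± 0.95, adjusted p = 0.00781). S100a8, a calcium-binding protein gene of neutrophils, stood at 0.430, 0.497 and 0.610 CPM in ConvD mice and at 6.87, 10.7 and 1.27 CPM in ConvR mice (-3.61 ± 0.64, adjusted p = 0.0113). Neither overlapped, and ConvR mouse 3 was the lowest of its group in both. The call of Prtn3 ended without ConvD mouse 2 (adjusted p = 0.0547). The call of S100a8 ended without ConvD mouse 1 (0.0592), ConvD mouse 2 (0.0690) or ConvR mouse 2 (0.0600). The defining neutrophil genes Mpo, Elane, Ngp and Camp were too low to be tested, with at most 0.605 CPM in any of the 15 libraries.

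Of 10 markers of monocytes and recruited macrophages 1 fell, Trem2 (-1.96 ± 0.53, adjusted p = 0.0480), beside 3.30% of all genes called lower. DESeq2 called 1 of these markers, limma-voom 0, and edgeR 0 after removal of the length trend. The list median was -0.85, and -0.14 without ConvR mice 1 and 2. The summed level of these markers was 89.3, 90.5 and 111 CPM in ConvD mice and 210.3, 183 and 139 CPM in ConvR mice. The call of Trem2 ended without ConvD mouse 1 (adjusted p = 0.110), ConvD mouse 2 (0.144), ConvD mouse 3 (0.126), ConvR mouse 1 (0.163) or ConvR mouse 2 (0.186). Cholangiocyte markers, of bile duct cells, summed to 54.3, 56.6 and 53.5 CPM in ConvD mice and 159.9, 119 and 58.1 CPM in ConvR mice. Spp1 belongs to this list and to that of monocytes and recruited macrophages, so the sums of these lists are not independent. Of 8 cholangiocyte markers tested, 1 fell, the transcription factor gene Sox9 (-1.41 ± 0.38, adjusted p = 0.0446), beside 3.30% of all genes called lower. DESeq2 called 1 of these markers and limma-voom 0. The list median was -0.29, with 6 members negative and 2 positive, and -0.24 without ConvR mice 1 and 2. The call of Sox9 ended without ConvD mouse 1 (adjusted p = 0.141), ConvD mouse 2 (0.141), ConvD mouse 3 (0.0928), ConvR mouse 1 (0.143) or ConvR mouse 2 (0.190). Hepatocyte markers summed to 113538, 129758 and 115059 CPM in ConvD mice and 76157, 68200.5 and 105691 CPM in ConvR mice, mostly Alb. Of 14 of them edgeR called 0, with 4 at an unadjusted p below 0.05, DESeq2 called 3 and limma-voom 0, and the median was 0.05.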

How the data were processed

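Whole livers of 15 mice were sequenced from stranded mRNA libraries, per the labels' protocols. Reads were processed with Bowtie2 and RSEM 1.2.23 on mm9, per the submitters' processing notes, and further settings are not given in the sources used here. The authors deposited expected counts per gene, of which 48.9% were fractional and which were rounded to whole numbers here, and TPM, which they also deposited and which served as levels per length and as an alternative. FPKM values, also deposited by the authors, were not analysed. The files listed 20325 genes, 2 of them in another row order, and were joined by symbol. Names follow the files.

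Expected counts of all 15 libraries were fitted with edgeR 4.0.16 (R 4.3.3) in a model of group means with 10 residual degrees of freedom. TMM scaling, filterByExpr with a minimum count of 10 and Benjamini-Hochberg adjustment over 12377 genes were used, and the biological coefficient of variation was 0.149. DESeq2 1.42.0 and limma 3.58.1 gave alternatives, with a pseudocount of 1 on TPM. For the length trend, each library's log2 CPM deviations from the mean of the 15 libraries were fitted on log2 gene length. A lowess curve (span 0.5) was used, fitted over genes above a log2 CPM of 3. These curves entered edgeR as offsets before the dispersions and tests, and fold changes were not altered afterwards. On simulated counts of the ConvD and ConvR chow comparison, 76 of 100 genes changed 2-fold and 99 of 100 changed 4-fold were called among 12377 genes, with 14 false calls. Simulated mice of a group varied around 1 mean per gene, without the split of ConvR mouse 3 from mice 1 and 2 or the length trends. These counts therefore do not give the recovery or false calls of the real comparison. Within the ConvD and the ConvR chow group, no 2 libraries agreed within sampling noise, and other pairs were not checked.

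Named were the 10 called genes with the largest change each way among non-overlapping genes averaging 2 CPM or more, genes called with each of 6 libraries left out, up to 4 members per list by adjusted p, and a preset group. Other list members, Alpk1, Tifa, Rps27 and Ddx3y were added after their values were seen. The groups, gene lists and tests were chosen with earlier results of these data known. Hmgcs1 was not analysed here, and some genes that the naming rule took are not reported here. Reads of near-identical genes (Saa1 and Saa2, Mup, Cyp2c, Cyp3a) may be split wrongly. Promoters were matched by symbol to RefSeq (GRCm38.p6), whose build differs from that of the counts.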

Additional observations from a re-analysis of the deposited data

How the results depend on the processing

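Counts of called genes are given as total, higher and lower in ConvD livers, beside 681, 272 and 409. DESeq2's size factors gave 668, 286 and 382, no filter 586, 248 and 338, a stricter filter 687, 264 and 423, limma-voom 556, 255 and 301, and removal of the length trend 586, 190 and 396. No normalization factors gave 1090, 801 and 289, DESeq2's Wald test 1121, 541 and 580, limma-voom with sample weights 2801, 1374 and 1427, and log2(TPM + 1) 3725, 3522 and 203. Fitting the 6 libraries alone gave 84, 34 and 50, and a fold change of at least 2 left 182, 28 and 154. Leaving out 1 mouse gave 15 to 1611, 4 to 765 and 11 to 846, and leaving out ConvR mice 1 and 2 gave 6, 0 and 6. The cause of these shifts was not tested.

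Among named genes called with all mice, the log2 fold changes of 5 changed sign without ConvR mice 1 and 2. They moved to 0.19 for Osmr, 0.45 for Il1rn, 0.39 for Lbp, 0.06 for Itih3 and 0.14 for Itih4. Of named genes called on counts or on TPM, 1 changed sign on TPM, Cyp27a1, to 0.27. Changes of sign in genes called in neither fit were not counted. With size factors of DESeq2, 289 named genes kept their side of the threshold, those called also keeping their direction, and 2 lost their call. With limma-voom 29 named genes lost their call.

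Mice of both groups carry numbers 1 to 3. With the number as a replicate block, the 15 libraries gave 479, 200 and 279 calls, and the 6 libraries alone gave 0, 0 and 0 by edgeR, with 2568 genes at an unadjusted p below 0.05. Deviations from the group means of equally numbered mice correlated across genes at -0.002, -0.23 and -0.092, and nothing in the labels pairs the mice, so the samples share only a number.

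There were 3 mice in a group, ConvR mice differed from each other, and 14 of the 681 calls were kept in all 6 fits that left out 1 mouse. Genes below the filter, among them defining neutrophil genes, were not tested. Cage, housing, gavage, age at colonization and duration of colonization cannot be told apart.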
